A study of Mus spretus with 19 samples.

Results

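Complement and coagulation plasma proteins are the inactive precursors, cofactors and inhibitors that the liver secretes into blood, where short chains of proteases switch them on. The account below follows 45 genes of these cascades: classical and lectin initiators, C3 and the alternative pathway, complement regulators, terminal components, vitamin K-dependent factors, the cofactor F5, the contact system, fibrinogen, and the plasmin system with its inhibitors. They were chosen by gene symbol from a list of names, with no measured value in the rule, and all 45 were found on the array and were above background, among 16346 genes measured. Livers came from male Algerian mice (Mus spretus) caught in the wild at 5 sites in southwest Spain, and the RNA of 9 livers per site was combined into 1 pool. The polluted sites were PS, the phosphogypsum stacks, and 3 points on the Domingo Rubio stream: DR1 on its lower course, DR4 on its medium course and DR6 on its upper course. SOL, the Santa Olalla lagoon, was the unpolluted site. Cy3-labelled RNA of each pool was put on 4 Agilent mouse arrays read in 1 colour, 3 for DR6, so that 19 arrays were available.

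All arrays of a site carry the same pool and are technical repeats. The p-values below therefore cover technical spread only and leave out the variation among mice and among pools. Each site had its own slide and its own scan, so that site and slide cannot be told apart. The probes were designed on the house mouse, and an effect of Mus spretus sequence on their signal was not tested. A level is the log2 of a probe's processed signal minus the log2 of the 75th percentile of its array, and a change is the difference of 2 site means on that scale. A change passed the test when its adjusted p in limma was under 0.05, and a gene was called when the change was also at least 2-fold, which is 1 on the log2 scale. In pooled liver RNA, fewer cells of a type and less RNA per cell cannot be told apart. All 16 measured hepatocyte markers were well above background on every array, as the tissue label says.

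In the liver, hepatocytes make nearly all of these proteins, while C1q is made mainly by macrophages and properdin (Cfp) by leukocytes. Complement marks and lyses microbes: the classical and lectin pathways start it, C3 is the point where the pathways meet, and C5 (Hc) to C9 assemble into a pore. Coagulation turns fibrinogen into a fibrin mesh through thrombin (F2), and the plasmin system dissolves it again. Several of these genes, C3, C9, C4bp and the fibrinogen chains among them, are known to rise in the acute phase response to inflammation.

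The values rest on single 60-base probes, and the probes that carry the results below are shown so that they can be traced to a transcript. Only the first 30 bases are printed, 5′ to 3′, from the sequence column of the deposited scanner files, with positions in the mm8 mouse build as those files give them. The fibrinogen α chain probe lies at chr3:83117683-83117742 on the plus strand, between those of Fgg and Fgb on the same chromosome. The C8a probe is at chr4:104313806-104313865 on the minus strand. For C8g the probe spans chr2:25320929-25321058 on the minus strand, which is longer than the probe itself. The Klkb1 probe is at chr8:46771146-46771205 on the minus strand. Protein S has 2 probes, the brighter at chr16:62871104-62871163 and the dimmer at chr16:62870427-62870486, both on the plus strand. C3 has 2 as well, the brighter at chr17:56889328-56889387 and the dimmer over chr17:56910450-56910607, both on the minus strand.
Fga: caaagaatttggcagtaagacccattctga
C8a: gaacctggatggactttttaacagatcaac
C8g: tgacagaagatcagattcttttctttccca
Klkb1: ccttccaaagctgacacaaatacaatttat
Pros1, brighter probe: atcagagacatcaggttatgctgtaagagg
Pros1, dimmer probe: ggaagatccagaagaatttttagactctgt
C3, brighter probe: attcacagaatctatggtggtttatggttg
C3, dimmer probe: ttccaacaaccaacacggcatcttgccttt

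Some of these transcripts are so abundant that their probes reached the upper limit of the scanner. C3 and Fgb were saturated on all 19 arrays, and 7 further genes on some: Fgg on 17 arrays, Kng1 on 11, F2 on 9, Vtn on 6, Plg on 3, Serpinc1 on 2 and Mbl2 on 1. The brighter C3 probe read between 62608 and 69964 on every array, while the 75th percentile of the arrays ran from 99.5 to 285. Its scaled level therefore falls where an array is brighter, and no fold is given for C3 or Fgb. Counts over the members below use the 36 genes that were saturated on no array, a subset taken after the saturation flags were seen.

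**Figure D1:**
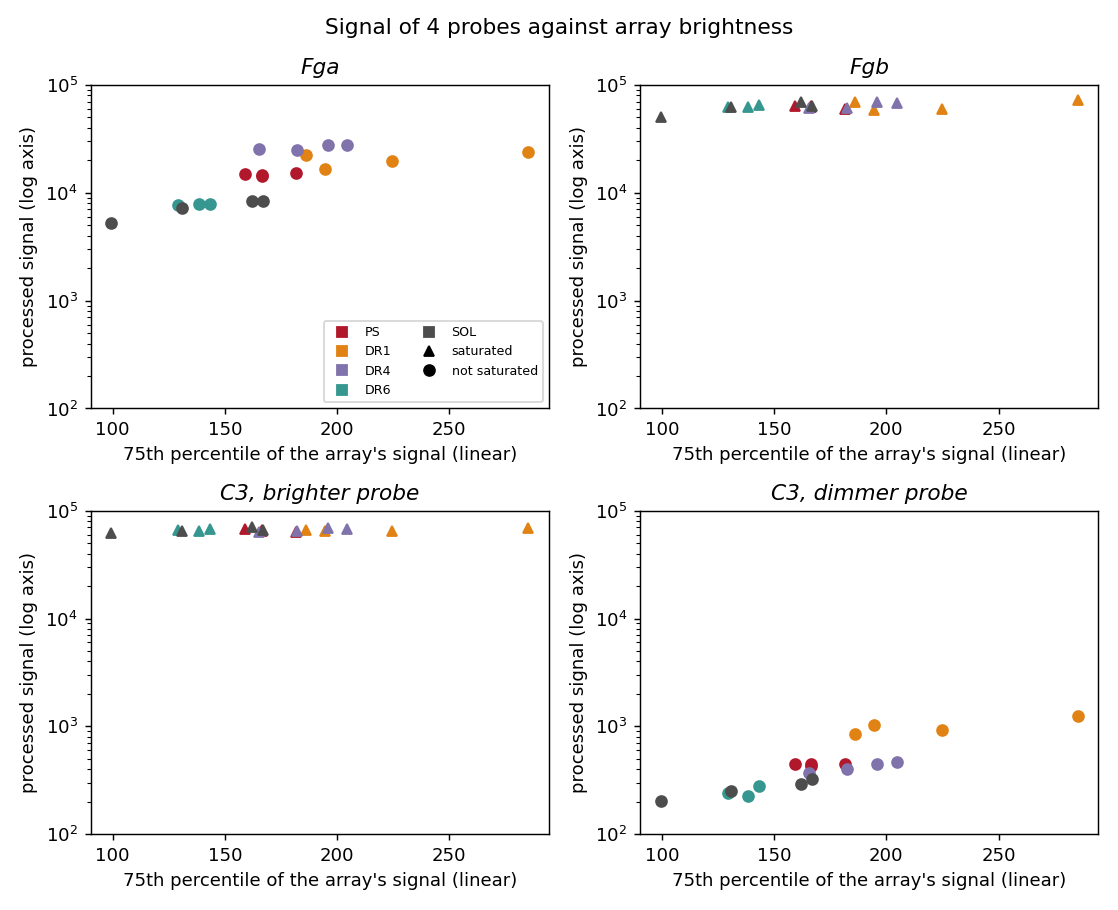
Processed signal of the Fga, Fgb and C3 probes (log axis) against the 75th percentile of the signal of the array (linear axis), 1 point per array, coloured by site, with triangles for saturated spots. Fgb and the brighter C3 probe stay between 50884 and 72307 at every array brightness, while the dimmer C3 probe ranges from 203 to 1242 and Fga from 5235 to 27979.

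Over these 36 genes, changes between sites were small. The range of a gene over the 5 site means was under 0.5 on the log2 scale for 12 genes, between 0.5 and 1 for 18, and at least 1 for 6, which are Pros1, Fga, C8a, C8g, Klkb1 and Serpinf2. These 6 make up 16.7% of the 36, against 4085 of 16343 genes, 24.995%, with a mean at every site. The Pros1 range is that between DR4 and SOL, and this difference was 0.90 without SOL replicate 1, which lay apart from its site. The median range was 0.58 for the 36 and 0.68 for all genes. DR1 was the highest site for 17 of the 36, and DR4 the lowest for 19. How often each site was highest or lowest over all genes was not counted. Of the pair DR1 and DR4, DR1 was higher for 31 of the 36 and for 8873 of the 16346 genes.

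At PS against SOL no member was called, against 4.42% of all genes. At DR1 against SOL none was called either, against 6.08% of all genes. DR4 against SOL gave 3 calls, Pros1 and Fga higher and Klkb1 lower, with 10.5% of all genes called. DR6 against SOL gave 1, Pros1, with 6.95% of all genes called. Within the stream, DR1 against DR6 gave 2 calls, C8a and C8g, both higher at DR1, with 7.50% of all genes called. The comparison of DR4 with DR6 gave 1, Fga, with 6.16% of all genes called, and that of DR1 with DR4 gave 1, C8g, with 5.14%. In each of these comparisons the called share of the 45, among which saturated genes could hardly be called, was below that of all genes.

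Smaller differences had a direction that depended on the site. Of the 36 genes, 12 passed the test higher and 7 lower at PS than at SOL (33.3% and 19.4%), against 16.4% of all genes in each direction. At DR1, 18 passed higher and 4 lower than at SOL (11.1% for the lower ones), against 24.5% and 23.2% of all genes. At DR4 the direction was the opposite, with 8 higher and 17 lower (22.2% and 47.2%), against 23.9% and 31.0% of all genes. At DR6, 4 passed higher and 14 lower (11.1% and 38.9%), against 20.5% and 23.4% of all genes. These 4 comparisons share the SOL arrays. In medians, the 36 genes differed from SOL by 0.05 at PS, 0.21 at DR1, -0.22 at DR4 and -0.14 at DR6, where all genes had medians of -0.01, 0.01, -0.05 and 0.00. Fewer genes passed with normexp background correction. It gave 0 of the 36 higher and 1 lower at PS, 1 higher and 0 lower at DR1, 0 higher and 4 lower at DR4, and 0 higher and 1 lower at DR6. Of all 16346 genes it gave 141 higher and 181 lower at PS, 515 and 473 at DR1, 700 and 1536 at DR4, and 307 and 247 at DR6. The median of the 36 at DR4 was -0.50 with normexp correction and -0.08 with quantile scaling, and at DR1 it was 0.23 with normexp correction.

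The stream pairs showed DR1 highest. Against DR6, 22 of the 36 passed higher at DR1 and 3 lower, with 27.0% and 23.8% for all genes, and the median change was 0.30. Against DR4, 22 passed higher at DR1 and 2 lower, with 26.9% and 17.9% for all genes, and the median was 0.36. DR4 against DR6 was mixed, with 17 of the 36 past the test in either direction, against 44.4% of all genes. The median of the 36 was -0.09, and became 0.01 with median scaling and 0.03 with quantile scaling. For all genes the median was -0.05, and became 0.05 and 0.01 with those scalings. With normexp background correction 2 of the 36 passed higher and 0 lower at DR1 than at DR6, against 494 higher and 453 lower of the 16346 genes. Against DR4 that correction gave 10 higher and 0 lower at DR1, with a median of 0.78, against 1324 higher and 483 lower of all genes. For DR4 against DR6 it gave 0 of the 36 in either direction, with a median of -0.42, against 233 higher and 506 lower of all genes.

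**Figure D2:**
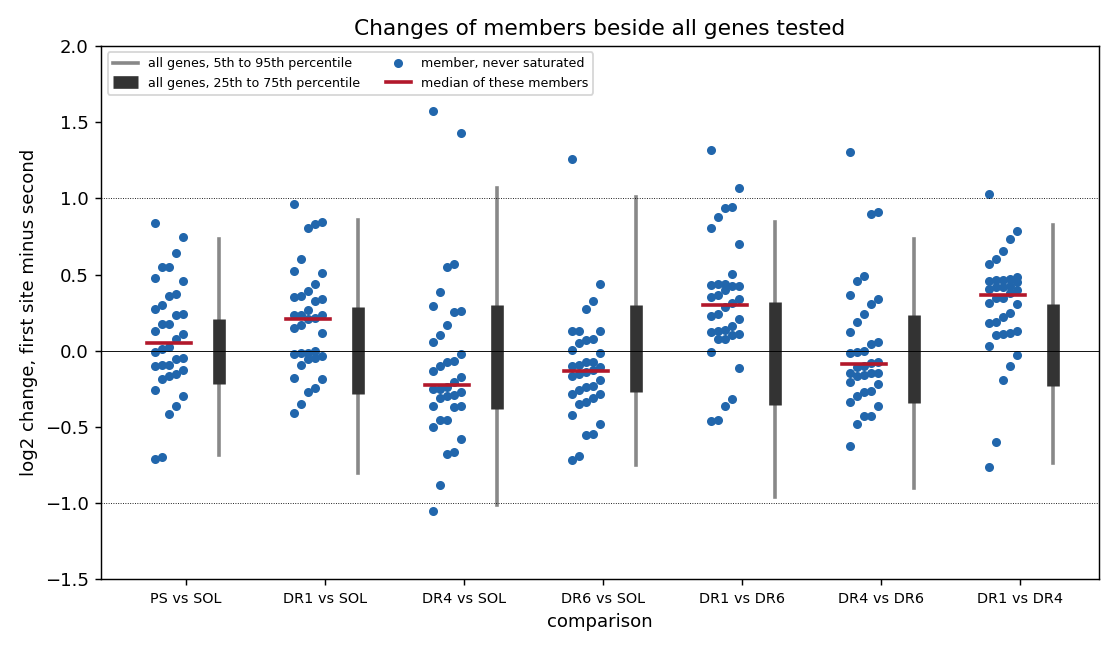
Log2 change of the 36 members that were never saturated (points, with their median as a red bar) in 7 site comparisons, beside the 25th to 75th percentile (thick bar) and 5th to 95th percentile (thin line) of all genes tested; dotted lines mark 2-fold. The members' medians are 0.21 for DR1 against SOL, -0.22 for DR4 against SOL and 0.36 for DR1 against DR4, and most points lie inside the thin line.

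The classical pathway begins with C1q, which binds antibody on a surface and carries the proteases C1r and C1s, which then cut C4 and C2. All 3 C1q chain genes rose at PS, C1qa by 0.48, C1qb by 0.37 and C1qc by 0.46 on the log2 scale (SE 0.10, 0.09 and 0.12), with adjusted p of 0.0015, 0.00286 and 0.00884. The C1qa levels were 2.96, 2.98, 2.88 and 3.02 at PS and 2.53, 2.63, 2.35 and 2.40 at SOL, so that the groups do not overlap. At DR1 C1qb rose by 0.23 (adjusted p 0.0335), while C1qa stood at 0.24 (adjusted p 0.0669) and C1qc at 0.00 (adjusted p 0.992). At DR4 and DR6 no C1q chain passed the test, and their changes lay between -0.17 and 0.01. The summed signal of 17 measured macrophage markers, relative to the array's 75th percentile, was 223 to 226 at PS, 202 to 237 at DR1, 141 to 151 at DR4, 126 to 130 at DR6 and 235 to 262 at SOL. Of the 17 markers, 3 passed higher and 2 lower at PS than at SOL, with a median change of 0.05, 4 passed higher and 4 lower at DR1, with -0.02, 1 higher and 13 lower at DR4, with -0.53, and 0 higher and 13 lower at DR6, with -0.48. Their part in the C1q values was not tested.

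Among the classical proteases and substrates, C4b, the main C4 gene, rose by 0.55 at PS (SE 0.09, adjusted p 0.000125). C4b levels were 6.53, 6.46, 6.53 and 6.57 at PS, against 6.23, 6.07, 5.82 and 5.78 at SOL, with no overlap. It was lower by 0.29 at DR4 (adjusted p 0.00877) with overlapping arrays. C4a, a near-identical copy, was well above background on 1 of 3 DR6 arrays and 2 of 4 SOL arrays. Its SOL mean was -3.87, where that of C4b was 5.98, and from this low level it was higher by 0.64 at PS and 0.84 at DR1. Whether either probe binds both transcripts was not tested. On their brightest probes C1r, C1s and C2 moved by 0.29 or less in either direction against SOL. Second probes gave other sizes: that of C1s was lower by 0.44 at DR4 (adjusted p 0.00342) and that of C2 by 0.36 at PS (adjusted p 0.000827). A second probe named C1r was lower by 0.64 at DR1 and 0.54 at DR4, and higher by 0.48 at DR6. On that probe DR1 was lower than DR6 by 1.12 (adjusted p 1.73e-10). DR4 was lower than DR6 by 1.02 on it (adjusted p 4.27e-10), so that both differences passed the 2-fold limit. This probe starts at chr6:124540910, with both C1s probes between it and the brightest C1r probe at chr6:124488653. Whether the 2 C1r probes read the same gene was not tested.

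The lectin pathway uses mannose-binding lectins (Mbl1, Mbl2) to recognise sugars and the proteases Masp1 and Masp2 to cut C4 and C2. Mbl1 was lower by 0.36 at PS, 0.45 at DR4 and 0.31 at DR6 (adjusted p 0.00119, 6.08e-05 and 0.00483), and not at DR1, where the change was 0.12. Masp2 fell by 0.45 at DR4 and by 0.28 at DR6 on its brightest probe. Another Masp2 probe gave -0.59 and -0.25 there (adjusted p 4.48e-06 and 0.0216). The dimmest Masp2 probe gave 0.04 and 0.09 (adjusted p 0.87 and 0.756). Masp1 was higher by 0.32 at DR1 (adjusted p 2.92e-05) and fell by 0.55 at DR6 (adjusted p 2.4e-07), and between those sites of the stream it differed by 0.88 (SE 0.05, adjusted p 1.01e-09). Its levels were 3.42, 3.55, 3.50 and 3.44 at DR1, against 2.57, 2.60 and 2.63 at DR6. The other Masp1 probes gave 0.34 and -0.11 for DR1 against DR6 (adjusted p 0.0121 and 0.697). They gave -0.07 and -0.53 for DR1 against SOL, so that the rise at DR1 rests on the brightest probe, while all 3 probes were lower at DR6, 2 of them past the test.

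C3 is the protein on which all complement pathways converge. Its dimmer probe was saturated on no array and gave levels of 1.32, 1.36, 1.43 and 1.49 at PS, 2.04, 2.20, 2.12 and 2.41 at DR1, 1.16, 1.14, 1.21 and 1.18 at DR4, 0.70, 0.89 and 0.97 at DR6, and 1.03, 0.93, 0.97 and 0.85 at SOL. The DR1 arrays stood above all others without overlap. On this probe C3 was higher by 1.25 at DR1 (SE 0.08, adjusted p 1.68e-09), by 0.45 at PS (adjusted p 0.000229) and by 0.23 at DR4 (adjusted p 0.0194), and its change at DR6 was -0.09 (adjusted p 0.395). DR1 exceeded DR6 by 1.34 and DR4 by 1.02 on the same probe. The brighter, saturated probe cannot show such a difference. Which C3 transcripts the dimmer probe binds was not tested, and its choice followed the saturation flags.

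Of the alternative pathway, Cfb, the protease that binds C3b, fell by 0.37 at DR4 and by 0.26 at DR6 (adjusted p 0.00015 and 0.00728). Properdin (Cfp), which stabilises the alternative convertase, fell by 0.24 at DR4 and by 0.48 at DR6 (adjusted p 0.0277 and 0.000592), along with the macrophage sum given above, and whether these are linked was not tested. Among the regulators, Serping1, the inhibitor of C1 and of kallikrein, rose by 0.55 at PS (SE 0.06, adjusted p 3.08e-06), with 6.16, 6.18, 6.23 and 6.21 at PS and 5.67, 5.57, 5.70 and 5.65 at SOL. It also rose by 0.27 at DR1 and 0.29 at DR4. C4bp, which disables C4b, fell by 0.50 at DR4 (adjusted p 0.00012), with 6.18, 6.21, 6.20 and 6.15 at DR4 against 6.33, 6.77, 6.78 and 6.84 at SOL. Its dimmer second probe was well above background on 12 of the 19 arrays, and its differences are not read here. Cfi, which cleaves C3b and C4b, rose by 0.39 at DR1 with overlapping arrays.

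The terminal components form the membrane attack pore, with C8 built from the C8a, C8b and C8g chains and C9 as the ring. At DR1 all 6 genes of this group passed the test higher than at SOL: Hc by 0.21, C6 by 0.36, C8a by 0.97, C8b by 0.52, C8g by 0.35 and C9 by 0.60. All 6 also passed higher at DR1 than at DR6. They passed at DR1 against SOL with median and quantile scaling too, and with normexp correction all 6 were higher and 1, C8a, passed. Genes passing higher at DR1 made up 24.5% of all genes against SOL and 27.0% against DR6.

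The C8a levels were 4.50, 4.47, 4.47 and 4.49 at PS, 5.38, 5.15, 5.11 and 5.19 at DR1, 4.86, 4.74, 4.81 and 4.74 at DR4, 3.96, 3.94 and 3.78 at DR6, and 4.28, 4.34, 4.21 and 4.14 at SOL. No 2 sites overlap, and the order from high to low was DR1, DR4, PS, SOL and DR6. DR1 exceeded DR6 by 1.32 on the log2 scale, 2.49-fold (SE 0.07, adjusted p 3.2e-10). Means were 5.21 ± 0.12 at DR1 (SD, n = 4) and 3.89 ± 0.10 at DR6 (SD, n = 3).

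C8g, the chain encoded on another chromosome, followed a different order. Its levels were 4.74, 4.71, 4.50 and 4.60 at PS, 5.50, 5.47, 5.48 and 5.18 at DR1, 4.35, 4.38, 4.35 and 4.45 at DR4, 4.45, 4.39 and 4.18 at DR6, and 5.00, 5.15, 5.00 and 5.08 at SOL. DR1 lay above SOL and both lay above the other sites, whereas DR4 and DR6 overlap. DR1 exceeded DR6 by 1.07 (2.09-fold, SE 0.09, adjusted p 5.02e-08) and DR4 by 1.03 (2.04-fold, SE 0.08, adjusted p 3.23e-08). Both values lie near the 2-fold limit: without DR6 replicate 3 the first was 0.99 and with normexp correction its adjusted p was 0.0811, while with quantile scaling the second was 0.90. At DR4 against SOL, C8g was lower by 0.67 (adjusted p 2.07e-06) while C8a was higher by 0.55 (adjusted p 1.84e-06), and C8b stood at 0.06 (adjusted p 0.583). The 3 chains of C8 therefore did not share a direction at DR4, although the difference between their changes was not tested itself.

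C9 levels were 1.71, 1.65, 1.72 and 1.88 at PS, 2.09, 2.03, 2.41 and 2.87 at DR1, 2.27, 2.30, 2.34 and 2.37 at DR4, 1.31, 1.35 and 1.57 at DR6, and 1.79, 1.62, 1.80 and 1.79 at SOL. DR1 and DR4 overlap each other and lie above the rest. At DR4 the change from SOL was 0.57 (SE 0.13, adjusted p 0.00166), while DR6 stood at -0.34 (adjusted p 0.0678).

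**Figure D3:**
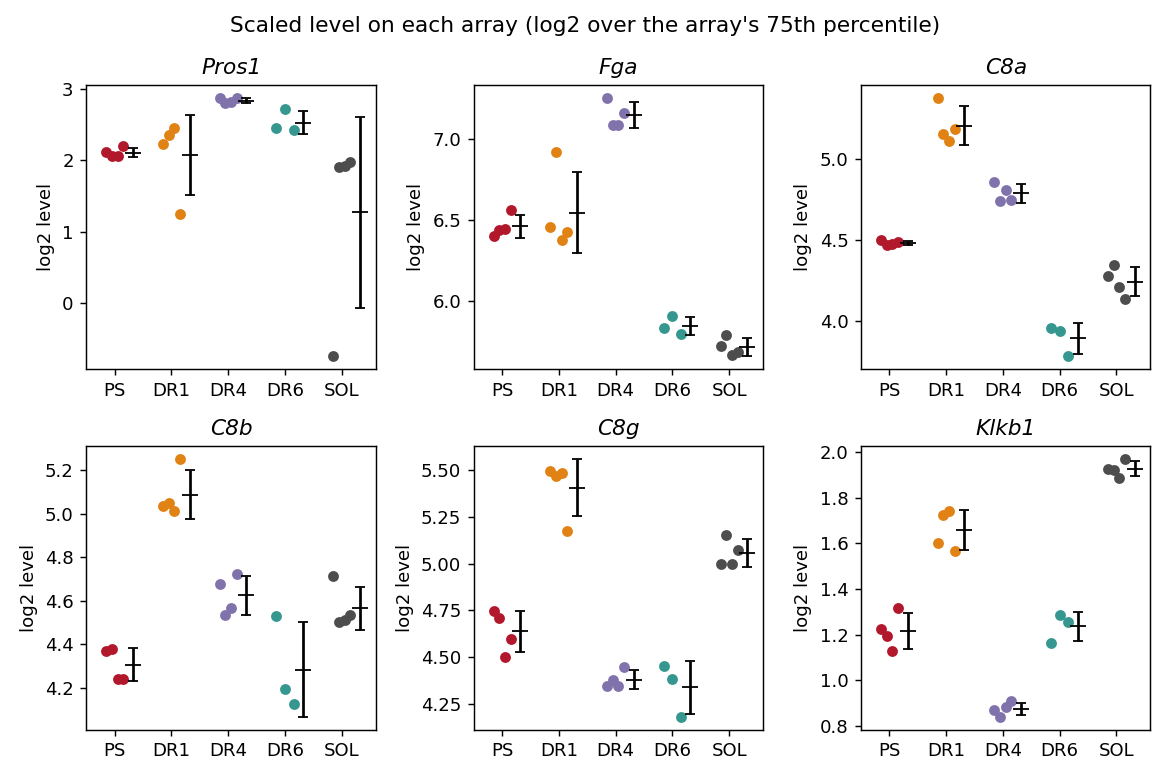
Scaled log2 level of Pros1, Fga, C8a, C8b, C8g and Klkb1 on each array at PS, DR1, DR4, DR6 and SOL (points), with the mean and SD of the site to the right of the points. One SOL array of Pros1 lies at -0.74, below its 3 companions at 1.91 to 1.98, and the Fga arrays of DR4 lie at 7.08 to 7.25, above every other site.

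The vitamin K-dependent factors need a vitamin K-driven modification of their glutamates to bind membranes. Among them Pros1, which encodes protein S, the cofactor of activated protein C, had the largest changes and the least steady ones. Its levels were 2.11, 2.06, 2.07 and 2.20 at PS, 2.24, 2.35, 2.46 and 1.25 at DR1, 2.87, 2.80, 2.82 and 2.87 at DR4, 2.46, 2.71 and 2.42 at DR6, and -0.74, 1.91, 1.92 and 1.98 at SOL. SOL replicate 1 and DR1 replicate 4 lie apart from their sites. Both arrays were also low on the dimmer Pros1 probe, at -2.57 and -0.07, where the other SOL arrays lay between 0.20 and 0.29 and the other DR1 arrays between 0.68 and 0.73. With all arrays, Pros1 was higher by 1.57 at DR4 (2.97-fold, SE 0.45, adjusted p 0.00679) and by 1.26 at DR6 (2.40-fold, SE 0.48, adjusted p 0.0439). Without SOL replicate 1 the changes were 0.90 (adjusted p 0.00127) and 0.59 (adjusted p 0.0357), so that both passed the test and neither was called. On the dimmer probe, with all arrays, the changes were 1.92 at DR4 and 1.70 at DR6 (adjusted p 0.00158 and 0.0094). With normexp correction the Pros1 change was 1.06 at DR4 and 1.06 at DR6 (adjusted p 0.192 and 0.492), and the DR6 call was lost when any of 13 of the 19 arrays was left out.

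The other vitamin K-dependent genes changed less. F7, which starts clotting with tissue factor, rose by 0.27 at PS and 0.34 at DR1, and fell by 0.31 at DR4 (adjusted p 0.0126, 0.00172 and 0.00279). F9 rose by 0.44 at DR1, 0.25 at DR4 and 0.33 at DR6. F10, the protease that makes thrombin, fell by 0.35 at DR1, 0.25 at DR4 and 0.23 at DR6 (adjusted p 7.97e-05, 0.00115 and 0.00509). Proc, the zymogen of activated protein C, fell by 0.25 at DR4 (adjusted p 0.0079), and its range over the sites, 0.27, was the smallest of the 36. F2 was saturated on 9 arrays and its values are not read further. F5, the cofactor of activated factor X, fell by 0.36 at DR4 (adjusted p 0.00897).

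The contact system starts clotting on foreign surfaces and releases bradykinin from kininogen. Klkb1, which encodes plasma prekallikrein, had levels of 1.23, 1.19, 1.13 and 1.31 at PS, 1.60, 1.72, 1.74 and 1.56 at DR1, 0.87, 0.84, 0.88 and 0.91 at DR4, 1.16, 1.29 and 1.26 at DR6, and 1.93, 1.92, 1.89 and 1.97 at SOL. Every SOL array lay above every array of the polluted sites, and DR4 lay below all others. Against SOL it fell by 0.71 at PS, 0.27 at DR1, 1.05 at DR4 (SE 0.05, adjusted p 5.81e-11) and 0.69 at DR6. The DR4 value was -1.06 with normexp correction and stayed between -1.07 and -1.04 when any single array was left out.

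F11, the zymogen that activated F12 cuts, fell by 0.70 at PS, 0.25 at DR1, 0.67 at DR4 and 0.24 at DR6 (SE 0.05 each, adjusted p 6.64e-09, 0.000455, 4.09e-09 and 0.00123). Its levels were 1.89, 1.92, 1.89 and 1.85 at PS, 2.38, 2.21, 2.40 and 2.38 at DR1, 1.93, 1.89, 1.91 and 1.96 at DR4, 2.34, 2.35 and 2.35 at DR6, and 2.63, 2.57, 2.54 and 2.60 at SOL, so that SOL lay above the other sites. F12, the surface-activated starter, rose by 0.23 at PS, 0.17 at DR4 and 0.44 at DR6 (adjusted p 0.00815, 0.0289 and 5.97e-05). All 4 comparisons of these genes share the SOL arrays and so the SOL slide. Kng1 encodes kininogen and was saturated on 11 arrays. Its second probe, saturated on none, was higher by 0.28 at PS and 0.18 at DR6 and lower by 0.23 at DR4.

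Fibrinogen consists of the α, β and γ chains encoded by Fga, Fgb and Fgg, neighbours on chromosome 3. Only Fga could be measured throughout. Its levels were 6.40, 6.44, 6.44 and 6.56 at PS, 6.46, 6.91, 6.38 and 6.42 at DR1, 7.25, 7.08, 7.08 and 7.16 at DR4, 5.83, 5.90 and 5.79 at DR6, and 5.72, 5.79, 5.66 and 5.68 at SOL. DR4 lay above all other sites, PS and DR1 overlapped in the middle, and DR6 and SOL were lowest. Fga was higher by 0.75 at PS (SE 0.09, adjusted p 9.12e-06), by 0.83 at DR1 (adjusted p 1.67e-06) and by 1.43 at DR4 (2.70-fold, adjusted p 1.09e-09), while DR6 stood at 0.13 (adjusted p 0.315). DR4 exceeded DR6 by 1.30 (2.47-fold, SE 0.10, adjusted p 2.42e-08).

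With normexp correction the Fga change at DR4 was 0.92 against SOL (adjusted p 0.0549) and 0.86 against DR6 (adjusted p 0.182), and both calls were lost. Fgb was saturated everywhere and Fgg on 17 arrays, with 2 of its 4 DR4 arrays dropped as outlier spots, so that whether the chains rose together cannot be read from these probes. F13b, the carrier subunit of the factor that crosslinks fibrin, did not pass the test against SOL at any site, with changes from -0.36 to -0.02.

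Plasmin, made from Plg, dissolves fibrin. Plg was saturated on 3 arrays and passed at no site against SOL, with 1 DR1 and 1 DR6 array dropped as outlier spots. Cpb2, which protects fibrin from plasmin, rose by 0.36 at PS, 0.51 at DR1 and 0.26 at DR4 (adjusted p 2.44e-05, 8.03e-07 and 0.000193), where 1 DR1 array was dropped. Serpinf2, the inhibitor of plasmin, went the other way at DR4, with 5.45, 5.34, 5.29 and 5.35 at DR4 against 6.34, 6.32, 6.17 and 6.11 at SOL. It fell by 0.88 at DR4 (SE 0.10, adjusted p 1.41e-06), by 0.40 at DR1 and by 0.54 at DR6. Serpind1, the heparin cofactor that inhibits thrombin, fell by 0.58 at DR4 and by 0.42 at DR6. Serpinc1, antithrombin, was saturated on 2 arrays of its brighter probe, both of DR1, and its unsaturated probe was lower by 0.51 at DR1 and by 0.80 at DR4 (adjusted p 8.29e-06 and 2.04e-08). At DR4 the brighter probe gave -0.64 (adjusted p 0.000102). The 2 probes differed at PS and DR6. There the brighter gave -0.32 and -0.39 (adjusted p 0.038 and 0.0156) and the unsaturated one -0.003 and -0.16 (adjusted p 0.977 and 0.0776).

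**Figure D4:**
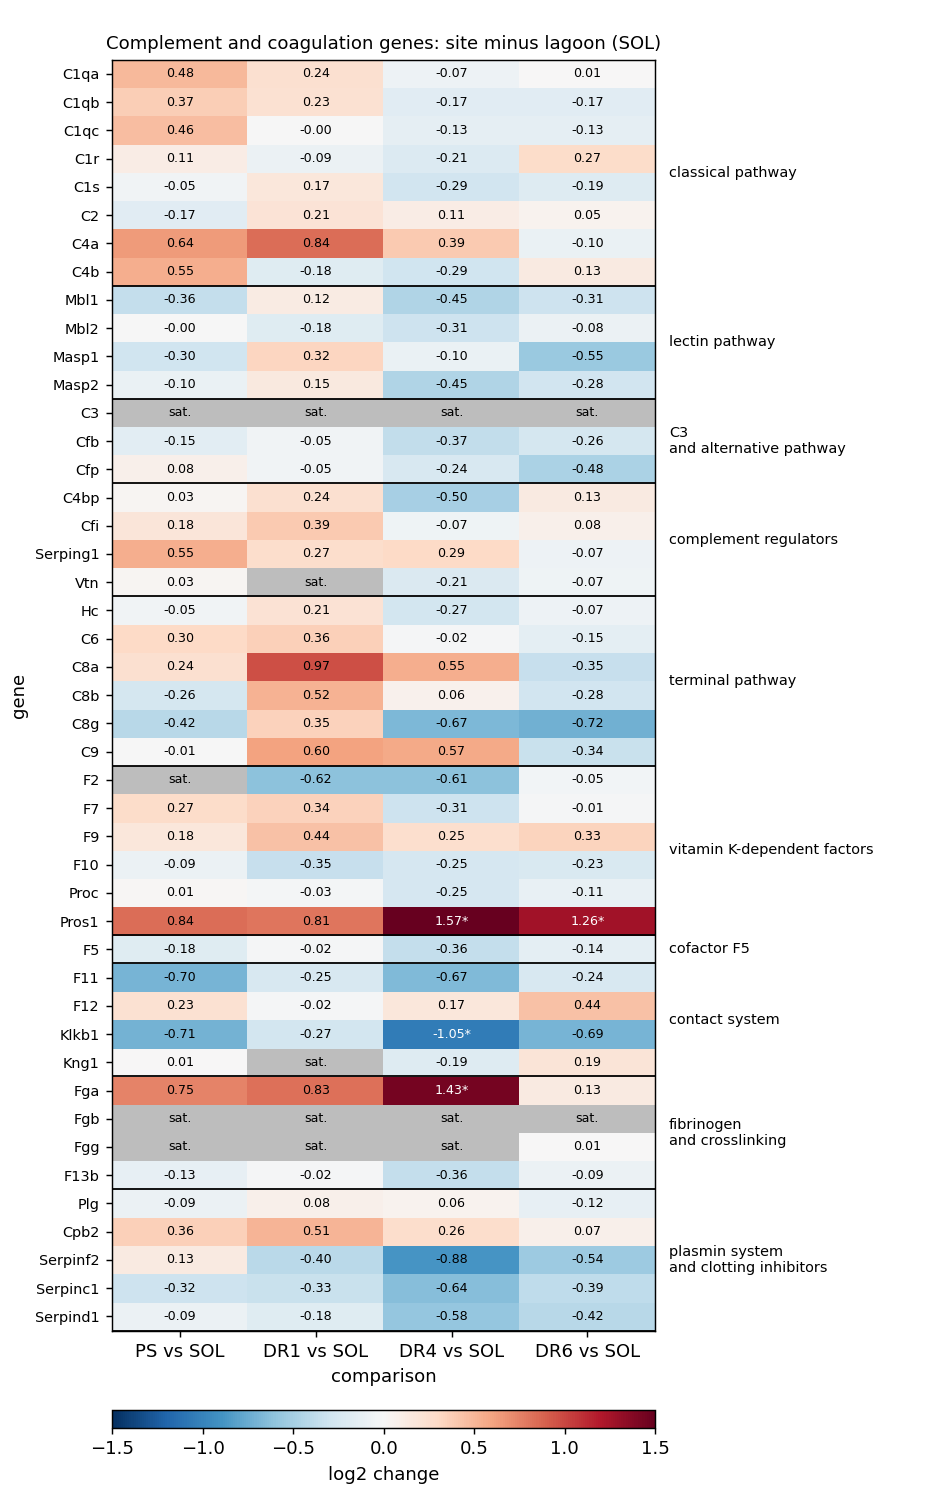
Log2 change of each of the 45 genes at PS, DR1, DR4 and DR6 against SOL, ordered by role; an asterisk marks a called gene and "sat." a comparison where the probe was saturated on every array of the lower site, so that no change is given. Comparisons with other saturated arrays are drawn without a mark and are not to be read as measured changes. Among them are F2 at DR1 (-0.62) and Kng1 at DR4 (-0.19), each with 3 arrays of the lower site saturated. Values run from -1.05 for Klkb1 at DR4 to 1.57 for Pros1 at DR4, and the terminal pathway is above 0 throughout at DR1.

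When the 4 polluted pools were set against the SOL pool with site means as units, 0 of 16346 genes and no member were called in limma, so 0% of genes. At an unadjusted p under 0.05 there were 665 genes, 4.07%, with Pros1 the 1 member, and the smallest adjusted p was 0.998. The SOL mean of Pros1 includes replicate 1, at -0.74, where the other SOL arrays lay at 1.91 to 1.98. In that fit the lone SOL pool is assumed to vary like the polluted pools.

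Other genes of the same pathways were read from lists. Of 26 other complement genes 17 were measured, with 0 called at PS, 1 higher and 1 lower at DR1, 0 higher and 2 lower at DR4, and 1 higher and 3 lower at DR6. C1rl, a C1r-like protease, fell by 1.65 at DR1, 1.79 at DR4 and 1.07 at DR6. Cfd, the alternative pathway's factor D, rose by 1.35 at DR1 and 1.11 at DR6, while Cr2, a B cell complement receptor, fell by 1.22 at DR4 and 1.01 at DR6. Itgam, a leukocyte integrin chain that binds C3 fragments, fell by 1.01 at DR6, where it was well above background on 2 arrays.

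Of 27 other coagulation genes 25 were measured. At each of PS, DR1 and DR4, 1 was called higher and 1 lower than at SOL, and at DR6 1 higher and 0 lower. Of all genes, 4.42%, 6.08%, 10.5% and 6.95% were called at these sites. F2r, a thrombin receptor, rose by 1.23 at DR4, and Plaur, the urokinase receptor, by 1.14 at DR6. F13a1, the catalytic subunit of factor XIII, was not well above background at SOL and was at least 2.33-fold higher at DR1 (adjusted p 3.19e-05), a bound set by the lowest signals well above background on the SOL arrays. All 5 measured genes of the vitamin K cycle, which recharges the cofactor, stayed below the 2-fold limit against SOL at all 4 sites.

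Among 19 measured transcription factors of these genes, Dbp, a factor whose level follows the time of day, was higher by 1.12 at PS, lower by 1.41 at DR4 and higher by 1.77 at DR6. Foxa1, a liver pioneer factor, rose by 1.39 at DR4, Onecut2 fell by 1.29 at DR4 and Socs3, an inhibitor of cytokine signalling, rose by 1.36 at DR6. The acute phase list, many but not all of whose genes are known to rise in the liver with inflammation, had 24 measured members. Of these, 6 were called higher at PS, 8 at DR1, 7 at DR4 and 4 at DR6, and 1 was called lower, at DR4. The 7 at DR4 include Lcn2, which was well above background on 1 of 4 arrays there. A2m rose by 3.82 at PS, 3.32 at DR1, 1.48 at DR4 and 1.62 at DR6. The metallothionein Mt1 rose by 1.36 at PS, 2.20 at DR1, 2.51 at DR4 and 1.84 at DR6, and the hepcidin gene Hamp1 by 1.20, 1.95, 2.24 and 1.72 at the same sites. Lcn2, a siderophore-binding protein also among the 8 at DR1, was at least 1.92-fold higher there than at SOL, where no array was well above background. Calls in this list thus outnumbered those of the complement and coagulation genes at each site, without a test of that difference. Of all genes, 4.42% were called at PS, 6.08% at DR1, 10.5% at DR4 and 6.95% at DR6. Saturated genes could hardly be called, and C3, higher by 1.25 at DR1 on its unsaturated probe, is not among the calls.

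Markers of other tissue also differed between the pools. The summed signal of 13 measured exocrine pancreas genes was 356 to 363 at PS, 726 to 818 at DR1, 148 to 189 at DR4, 1683 to 1721 at DR6 and 1398 to 1585 at SOL. All 13 were called lower at PS and at DR4, 3 at DR1 and 0 at DR6. The sum for 16 hepatocyte markers, of which 3 were saturated on some arrays, was 2187 to 2399 at PS, 1989 to 2478 at DR1, 1965 to 2358 at DR4, 2863 to 2882 at DR6 and 2270 to 3190 at SOL. The part of these differences in the changes of the complement and coagulation genes was not tested.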

How the data were processed

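For each of the 19 arrays the authors deposited a scanner file with a linear intensity for every spot (per the file headers). Extraction used Agilent Feature Extraction, version 9.5.3.1 in the submitters' processing notes. That software subtracts background and corrects spatial trends, and the deposited arrays are not scaled to each other. The deposited series table holds the same intensity, with a largest relative difference of 0.497%, and was an alternative. The other deposited columns are 0 or 1 flags. Gene names came from the mm8 design file, since 5.84% of gene spots carry another name on the DR1 slide.

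From these, log2 processed signal minus each array's 75th percentile was taken, outlier spots were dropped and spots averaged. Probes were kept if 3 or more arrays of 1 site had them well above background (23458 of 41174), with the brightest per gene. Between 52.0% and 61.5% of spots per array were well above background, and the number of arrays limits the precision. A mean per site was fitted with limma 3.58.1 (R 4.3.3) to all 19 arrays, with two-sided tests and Benjamini-Hochberg adjustment over 16346 genes within each comparison. The fit was tested on simulated data. Per-array values were given for members called in any comparison, and list genes were named only if called against SOL, at most 4 a list, and 1 such gene is not reported here. Values per array of other members were added after they were seen. The members and lists were chosen with earlier results of these data known. Alternatives were median and quantile scaling, normexp background (offset 50), no filter, the mean of probes, unsaturated probes, the series table, other limits, the replicate number as a block, and leaving out each array.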

Additional observations from a re-analysis of the deposited data

Results flagged for a closer look

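Of 177 groups of 4 arrays from the complement and coagulation genes, 20 (11.3%) held 1 array whose gap to its nearest neighbour took up more of the group's range than Dixon's limit allows, which chance does in about 1 in 20 groups. Levels are log2 over the array's 75th percentile, and the levels of the other 3 arrays follow each value. The widest gap was Pros1 at SOL replicate 1, at -0.74 beside 1.91 to 1.98. SOL replicate 1 also stood apart for C4bp, at 6.33 beside 6.77 to 6.84, and for C8b, at 4.71 beside 4.50 to 4.53. DR1 replicate 2 held 5 of the 20: C1qa at 3.09 beside 2.55 to 2.63, F5 at 1.90 beside 2.39 to 2.49, F11 at 2.21 beside 2.38 to 2.40, Fga at 6.91 beside 6.38 to 6.46 and Serping1 at 5.70 beside 5.96 to 6.004. DR1 replicate 4 held 4: C8b at 5.25 beside 5.01 to 5.05, C8g at 5.18 beside 5.47 to 5.50, F9 at 4.19 beside 3.72 to 3.77 and F12 at 6.51 beside 6.24 to 6.28. DR4 replicate 1 held 3: C1qb at 1.57 beside 1.40 to 1.42, C6 at 2.61 beside 2.50 to 2.50 and Plg at 8.17 beside 8.01 to 8.02. The others were C9 at SOL replicate 2 (1.62 beside 1.79 to 1.80), Masp2 at DR4 replicate 4 (3.83 beside 3.98 to 4.01), F7 at PS replicate 3 (3.65 beside 3.73 to 3.74), and Kng1 at DR4 replicate 3 (8.38 beside 8.56 to 8.58) and SOL replicate 3 (8.62 beside 8.73 to 8.75), Kng1 and Plg being partly saturated probes.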

How the results depend on the processing

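The Klkb1 and C8a calls kept their side of the limits under every setting that holds the 2-fold limit. Counts of members called changed as follows. Median scaling gave 0 for DR6 against SOL, 4 for DR1 against DR6 and 2 for DR4 against DR6, and quantile scaling gave 0 for DR1 against DR4. Median scaling moved the median of all genes too, from -0.004 to -0.09, from -0.001 to 0.09 and from -0.05 to 0.05 in those comparisons. Quantile scaling moved it from 0.04 to 0.006 for DR1 against DR4. All-gene counts of calls are not given for median or quantile scaling, no filter or unsaturated probes, so member counts there lack a baseline. Normexp gave 1 for DR1 and 5 for DR4 against SOL, 0 for DR6 against SOL, 0 for DR4 against DR6 and 4 for DR1 against DR4. Of the 5 at DR4, 1, Klkb1, was among the 3 called in the report, and all 5 were lower, where 2 of those 3 were higher. The 1 at DR1, C8a, was not called in the report. Of the 4 for DR1 against DR4, 1, C8g, was the one called there. Normexp also gave 153, 257, 768 and 225 genes for PS, DR1, DR4 and DR6 against SOL and 273, 300 and 506 for DR1 against DR6, DR4 against DR6 and DR1 against DR4. No filter on dim probes gave 0 for DR6 against SOL. Unsaturated probes, which measured 39 members, gave 1 for DR1 against SOL and 2 for DR1 against DR4, and turned C3 to 1.25 for DR1 against SOL, 1.34 for DR1 against DR6 and 1.02 for DR1 against DR4. A 1.5-fold limit gave, in the order PS, DR1, DR4 and DR6 against SOL, DR1 against DR6, DR4 against DR6 and DR1 against DR4, 4, 7, 8, 3, 10, 4 and 6 members and 1848, 3008, 4223, 2988, 3620, 2946 and 2661 genes, saturated members included. The adjusted p alone gave, in that order, 20, 29, 31, 19, 30, 23 and 26 members and 5364, 7796, 8982, 7180, 8308, 7259 and 7312 genes, saturated members included. Of the 36 genes never saturated, the 1.5-fold limit gave 2 higher and 2 lower at PS and 4 and 0 at DR1. It gave 2 and 4 at DR4 and 1 and 2 at DR6, all against SOL. Within the stream it gave 7 and 0 for DR1 against DR6, 3 and 1 for DR4 against DR6, and 5 and 1 for DR1 against DR4. Leaving out 1 array gave, in the same order, 0 to 0, 0 to 1, 2 to 3, 0 to 1, 2 to 3, 1 to 1 and 0 to 1 members and 701 to 759, 964 to 1082, 1671 to 1789, 1041 to 1183, 1160 to 1281, 977 to 1030 and 814 to 912 genes, with 0 members and 0 genes throughout for the 4 pools against SOL. C8g for DR1 against DR4 was 0.995 without DR1 replicate 1 and 1.00 without DR1 replicate 3, both below the limit. The replicate number as a block gave 0 members for DR6 against SOL (Pros1 1.26, adjusted p 0.0523) and moved no other count of calls past 1.5 times. The labels name nothing that the numbers share. Same-numbered arrays of different sites had deviations that correlated at -0.16 to 0.48, over 0.1 in 16 of 36 pairs (median 0.09), against 15 of 108 differently numbered pairs (median -0.03). Of the 19 arrays 11 were closest to one of their own number, a hint of sharing from the data, not the design. The cause of these differences was not tested. Arrays of 1 pool per site, saturation, and 1 slide per site limit every comparison.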
